A study of Homo sapiens with 6 samples.

Results

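The levels of 6 long non-coding RNAs were followed in RKO cells after knockdown of TRIM21, an E3 ubiquitin ligase that also serves as a cytosolic antibody receptor: NEAT1, MALAT1, TUG1, NORAD, KCNQ1OT1 and OIP5-AS1. They were chosen by gene symbol, as abundant long non-coding RNAs that total RNA libraries capture, and all 6 were found among the 28278 gene rows of each library. RKO is an established human cell line from a poorly differentiated colon carcinoma. The comparison held 3 libraries of cells carrying a lentiviral short hairpin RNA against TRIM21 (shTRIM21) and 3 of cells carrying a scrambled hairpin by the same method (shControl). Cells of both groups were put under puromycin at 5 µg/ml 36 h after infection and selected for 2 to 3 weeks, and ribosomal RNA was removed from their total RNA before library construction. The labels give neither the hairpin's sequence nor how many hairpins or clones were used. The samples are called biological replicates with no separate infections named, so p-values measure the spread between these libraries, which may be technical.

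NEAT1 is the scaffold of paraspeckles, nuclear bodies built from the long NEAT1 transcript and proteins such as NONO and SFPQ. MALAT1, its neighbour on the chromosome, collects in nuclear speckles, where splicing factors are stored. KCNQ1OT1 is transcribed from the paternal allele inside the KCNQ1 gene and silences nearby imprinted genes in cis, and TUG1 has been described in both nucleus and cytoplasm. NORAD and OIP5-AS1 are known mainly from the cytoplasm, NORAD as a decoy of the PUMILIO proteins and OIP5-AS1 (cyrano) as a partner of the microRNA miR-7. The libraries were made from whole cells, so the name nuclear-retained could not be checked here, and fewer cells holding an RNA cannot be told apart from less RNA per cell.

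MALAT1 and NEAT1 have no ordinary poly(A) tail on their mature long forms: their ends are cut by RNase P and protected by a triple helix of U-rich and A-rich stretches. The last 110 bases before each cut are shown because this structure sets the pair apart from polyadenylated RNAs. MALAT1 lies on chromosome 11 and its end, as sequence of GENCODE 29 on GRCh38, spans chr11:65506007-65506116 on the plus strand. The NEAT1 end spans chr11:65445431-65445540 on the same strand. Capitals mark every word of 9 or more bases that both ends hold, which were 1 word of 16 bases and 1 of 11 bases.
MALAT1 end: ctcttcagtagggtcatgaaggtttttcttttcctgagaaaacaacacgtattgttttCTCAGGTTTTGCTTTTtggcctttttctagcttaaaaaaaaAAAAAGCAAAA
NEAT1 end: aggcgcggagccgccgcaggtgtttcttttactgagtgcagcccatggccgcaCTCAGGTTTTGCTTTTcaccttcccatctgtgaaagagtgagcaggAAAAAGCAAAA
Directly downstream of the MALAT1 cut lies the tRNA-like small RNA mascRNA, 58 bases at chr11:65506117-65506174.
mascRNA: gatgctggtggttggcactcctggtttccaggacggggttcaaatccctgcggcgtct
The mascRNA row held 0 counts in 4 libraries and 1 count in each of the other two, shControl replicates 1 and 3. It is therefore below what these libraries could measure.

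NORAD and OIP5-AS1 carry the sites for which each is known. The PUMILIO word TGTANATA, where N is any base, occurred 15 times in the 5339 bases of the NORAD transcript and 1 time on its other strand. The N was T in 10 of these, A in 4 and C in 1. Among 4343 genes whose longest GENCODE transcript was within 20% of that length, 41.4% held at least 1 such word, the median was 0, and 3 held 15 or more, NORAD itself included. The longest transcripts used for the other members held 6 words in NEAT1, 2 in TUG1, 1 in OIP5-AS1, 9 in the 91667 bases of KCNQ1OT1 and 0 in MALAT1. The first and the last of the NORAD words are shown in capitals with their surroundings, read on the minus strand at chr20:36050182-36050211 and chr20:36046344-36046373.
NORAD first word: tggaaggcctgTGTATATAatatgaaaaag
NORAD last word: attagcctattTGTAAATAcctttgttata
OIP5-AS1 held 3 matches to the seed of miR-7-5p. The word GTCTTCC that pairs with the seed was present in 48.1% of 1539 genes of similar transcript length, so a match alone is common. At 1 of the 3, a run of 14 bases upstream was also complementary to the rest of the microRNA, against runs of 5 and 3 bases at the others. That site is at chr15:41300570-41300599 on the plus strand, in an exon. Capitals mark the seed in the microRNA (bases 2 to 8, RefSeq, GRCh38.p14), and the seed match and the 14-base run in the site.
miR-7-5p: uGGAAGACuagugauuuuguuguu
OIP5-AS1 site: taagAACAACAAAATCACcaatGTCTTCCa

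As a check of the labels, TRIM21 held 271 to 299 counts in shTRIM21 and 343 to 459 in shControl, a log2 fold change of -0.54 (SE 0.12, edgeR adjusted p = 0.00424). It lost its call when libraries were scaled by their totals alone (-0.34, edgeR adjusted p = 0.197, the highest over 18 alternatives, the lowest being 0.000399). Library totals ran from 33499827 to 44466137 counts, of which ribosomal RNA rows took 14.7% to 36.9%, most in shControl replicates 3 and 1 and least in shControl replicate 2. The remaining counts, 27808151 to 29100459, were nearly equal. Epithelial markers were at 5971 to 6637 CPM (counts scaled by the TMM method to a common library size) summed in shControl and 4639 to 4881 CPM in shTRIM21, with CDX1 and LGALS4 of the 10 listed at 0. Of 7 fibroblast markers DCN and LUM were at 0 in every library, and the summed level, mostly COL1A1, was 10.5 to 11.07 CPM in shTRIM21 and 6.15 to 9.19 CPM in shControl. Of 7 immune markers CD3E was at 0, and the sum, mostly CD68, was 6.29 to 6.90 against 7.53 to 8.72 CPM. Of 5 endothelial markers CDH5 was at 0, with sums of 0.423 to 0.986 against 0.435 to 0.773 CPM. The part of these markers in the results was not tested. A mouse tissue is given as source in 1 label field, but all other fields and the symbols point to human cells.

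Of the 6 long non-coding RNAs, NEAT1 and TUG1 rose in shTRIM21 and the other 4 did not pass the test. NEAT1 was 1.58-fold and TUG1 1.31-fold higher. Among all 15131 tested genes 20.8% were called at an edgeR adjusted p under 0.05, 9.77% higher and 11.0% lower, which is the background for 2 of 6 called higher. Of all calls 47.0% were higher, or 93.0% with library totals alone, a scaling that moved the median of all tested genes to 0.22. None of the 6 was called lower by edgeR, DESeq2 or limma-voom, and 0 were lower at an unadjusted p under 0.05 with any of these tools. The median log2 fold change of the 6 was 0.16, against 0.0054 over all tested genes.

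**Figure D1:**
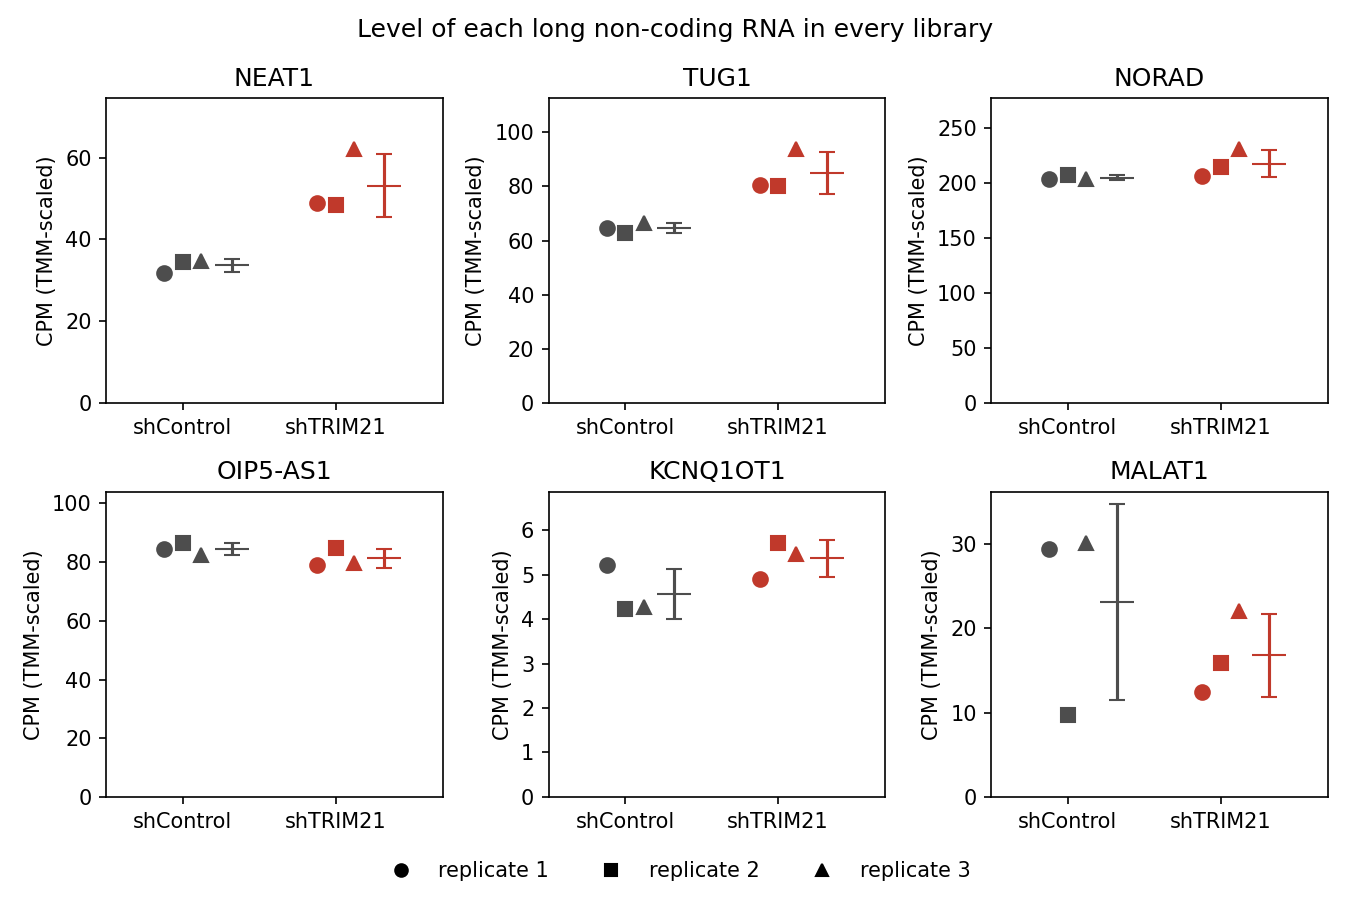
TMM-scaled CPM of the 6 RNAs in each of the 6 libraries (grey, shControl; red, shTRIM21; the marker shape gives the replicate number), with the group mean and SD to the right of the points. The 3 shTRIM21 libraries lie above all shControl libraries for NEAT1 and TUG1, and the shControl libraries of MALAT1 lie apart, at 9.71 CPM against 29.4 and 30.2 CPM.

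NEAT1, on chromosome 11 at 65422798 to 65445540, held 1836, 1897 and 2352 counts in shTRIM21 replicates 1 to 3 and 1203, 1269 and 1257 in the shControl replicates. Scaled, these were 48.9, 48.4 and 62.1 CPM against 31.9, 34.5 and 34.7 CPM. All shTRIM21 libraries lay above all shControl libraries, and shTRIM21 replicate 3 lay above the other two. Group levels were 53.2 ± 7.77 and 33.7 ± 1.58 CPM (SD, n = 3 each). This gave NEAT1 a log2 fold change of 0.66 (SE 0.088; interval of 95% from 0.47 to 0.85; edgeR adjusted p = 0.000107). Leaving out shTRIM21 replicate 3 gave 0.53 (edgeR adjusted p = 0.000149). NEAT1 makes a short and a long transcript from 1 start site, and the rows count both together, so it is not known here which of them rose. By p-value NEAT1 stood at place 277 of the 15131 tested genes.

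TUG1, on chromosome 22 at 30969265 to 30979395, is listed in RefSeq as protein-coding because an open reading frame has been annotated in it. Its counts were 3028, 3138 and 3554 with the TRIM21 hairpin and 2448, 2310 and 2412 with the scrambled one. The scaled levels of TUG1 were 80.7, 80.1 and 93.9 CPM against 64.9, 62.8 and 66.6 CPM. As for NEAT1, the groups did not overlap and shTRIM21 replicate 3 was the highest library. TUG1 went from 64.8 ± 1.86 to 84.9 ± 7.79 CPM (SD, n = 3 each), a log2 fold change of 0.39 (SE 0.066, 95% interval 0.25 to 0.53; edgeR adjusted p = 0.000825). Without shTRIM21 replicate 3 the TUG1 change was 0.31 (edgeR adjusted p = 0.00288). Over all tested genes the groups did not overlap for 37.7%, so 2 of 6 without overlap is near that background.

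The region around the TUG1 start is shown because TUG1 is 1 of the 2 members that rose; the RefSeq promoter table used here had entries for 4 of the 6 genes, and none for NEAT1 or KCNQ1OT1. The window is chr22:30969015-30969314 (GRCh38.p14, plus strand), from 250 bases before to 50 after the start. Capitals mark the E-box word CACGTG, which reads the same on both strands, and the CCAAT word on either strand, words picked after the sequences had been seen.
TUG1 promoter: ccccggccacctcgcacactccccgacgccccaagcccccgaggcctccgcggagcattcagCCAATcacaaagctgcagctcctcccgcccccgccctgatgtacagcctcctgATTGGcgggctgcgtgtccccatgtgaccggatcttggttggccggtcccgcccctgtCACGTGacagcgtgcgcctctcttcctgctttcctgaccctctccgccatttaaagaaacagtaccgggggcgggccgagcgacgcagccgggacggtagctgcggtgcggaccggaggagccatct
The window held 1 E-box and 2 CCAAT words. An E-box was also present 1 time each in the windows of NORAD and OIP5-AS1 and in neither of the 2 windows of MALAT1. The OIP5-AS1 window, chr15:41283740-41284039, and 1 MALAT1 window, chr11:65498795-65499094, lay inside the RefSeq span of their gene. They are thus not placed at the gene's outer start as that of TUG1 is. Of the 35116 windows of this length in the table, 7.26% held CACGTG and 34.6% held CCAAT on either strand. The OIP5-AS1 window also held 2 CCAAT words and that of NORAD 0. Both words were thus present in a member that rose and in OIP5-AS1, which did not pass the test.

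MALAT1, on chromosome 11 at 65497738 to 65506516, varied most. It held 467, 621 and 836 counts in the shTRIM21 replicates and 1111, 357 and 1093 in the shControl replicates. The MALAT1 levels were 12.4, 15.9 and 22.1 CPM against 29.4, 9.71 and 30.2 CPM. Both the highest and the lowest libraries were shControl, and the group levels, 16.8 ± 4.89 and 23.1 ± 11.6 CPM (SD, n = 3 each), overlapped. MALAT1 had a log2 fold change of -0.46 (SE 0.29, 95% interval -1.08 to 0.16; edgeR adjusted p = 0.291). The result rested on single libraries. Without shControl replicate 2 MALAT1 was called lower at -0.83 (edgeR adjusted p = 0.0028), and without shControl replicates 1 and 3 it was at 0.78 (edgeR adjusted p = 0.0644), over a range of 0.0028 to 0.67 for its 18 alternatives. The last setting leaves 1 shControl library, which is assumed to vary like the shTRIM21 libraries. The spread within shControl, a coefficient of variation of 50.2%, was higher than or equal to that of 99.89% of the 10902 genes with at least 5 CPM in both groups, and counting error alone would give 3.42%.

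The 2 shControl libraries with high MALAT1 also had the largest ribosomal RNA shares, 31.0% and 36.9%, and the low one had the smallest, 14.7%. Within shTRIM21 the order differed: replicate 3, with the most MALAT1, had the smallest share of the 3, 16.99%. The part of ribosomal RNA removal in the MALAT1 values was not tested. NEAT1, whose gene ends 52197 bases before that of MALAT1, did not share this spread and lay between 31.9 and 34.7 CPM in the same shControl libraries. As a result NEAT1 counts were 1.08, 3.55 and 1.15 times those of MALAT1 in the shControl replicates and 3.93, 3.05 and 2.81 times in the shTRIM21 replicates.

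TALAM1, annotated on the opposite strand, covers 82.1% of the MALAT1 gene, and its counts followed those of MALAT1 library by library. TALAM1 held 442, 590 and 785 counts in shTRIM21 and 1068, 334 and 1054 in shControl, which is 93.6% to 96.4% of the MALAT1 count of the same library. It was also the tested gene whose levels were most like those of MALAT1 (Pearson r = 0.9999 over the 6 libraries). The use of strand in counting is not given in the sources used here, so reads of MALAT1 and TALAM1 cannot be told apart and may have been listed under both. TALAM1 had a log2 fold change of -0.48 (SE 0.30, edgeR adjusted p = 0.274), and like MALAT1 it turned to 0.80 without shControl replicates 1 and 3.

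**Figure D2:**
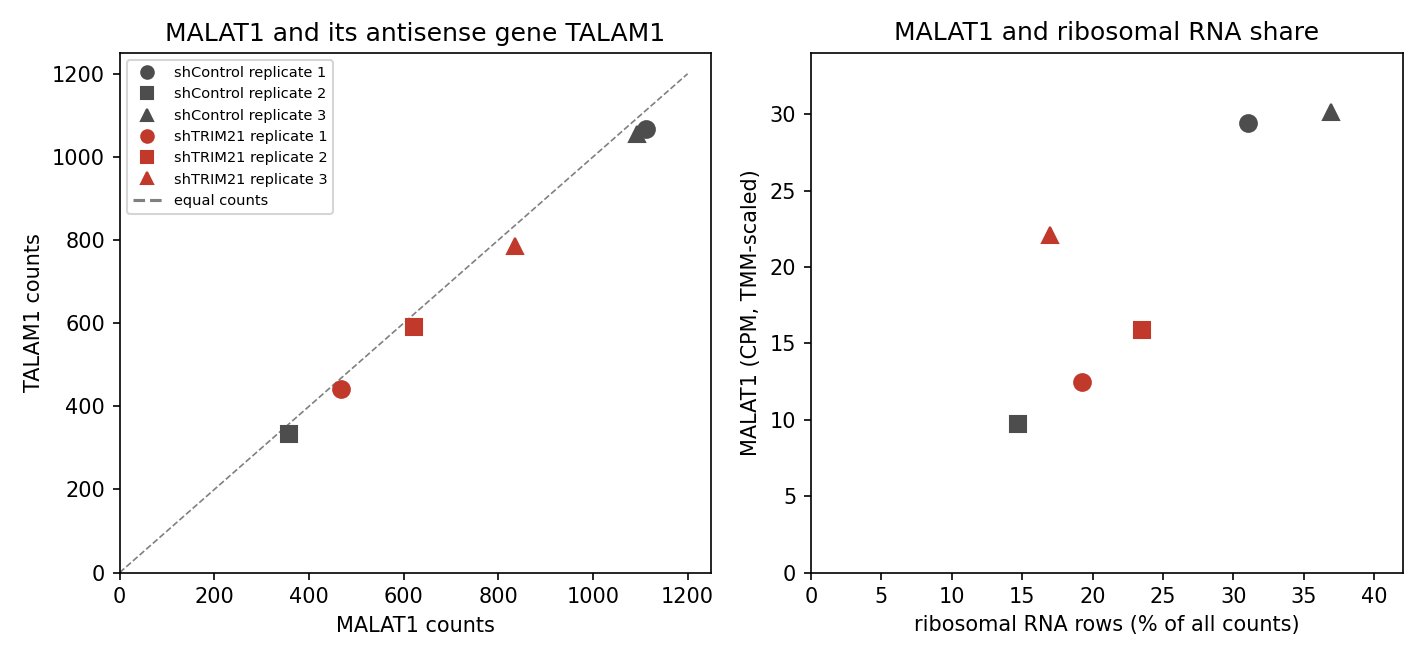
Left, TALAM1 counts against MALAT1 counts in the 6 libraries, with the line of equal counts; right, MALAT1 level (TMM-scaled CPM) against the share of all counts in ribosomal RNA rows (%). TALAM1 stays just under the line in every library, and the shControl libraries with 31.0% and 36.9% ribosomal RNA have the highest MALAT1.

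NORAD, on chromosome 20 at 36045618 to 36050960, was the most abundant of the 6 and the steadiest in shControl. Its levels were 207, 215 and 231 CPM in shTRIM21 and 203, 208 and 203 CPM in shControl, from 7367 to 8746 counts. One shTRIM21 library lay within the shControl range and the other two above it. NORAD had a log2 fold change of 0.087 (SE 0.053, 95% interval -0.027 to 0.20; edgeR adjusted p = 0.27).

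OIP5-AS1, on chromosome 15 at 41282697 to 41313338, held 2970, 3322 and 3020 counts in shTRIM21 and 3184, 3185 and 2988 in shControl. Its levels, 79.2, 84.8 and 79.8 CPM against 84.4, 86.7 and 82.5 CPM, overlapped. OIP5-AS1 had a log2 fold change of -0.056 (SE 0.055, 95% interval -0.17 to 0.060; edgeR adjusted p = 0.51). Its sign turned with the scaling, to 0.15 with library totals alone.

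KCNQ1OT1, on chromosome 11 at 2608328 to 2699994, was the least abundant, with 184, 224 and 207 counts in shTRIM21 and 197, 155 and 155 in shControl. These were 4.90, 5.72 and 5.47 CPM against 5.22, 4.22 and 4.28 CPM, with shControl replicate 1 inside the shTRIM21 range. KCNQ1OT1 had a log2 fold change of 0.23 (SE 0.14, 95% interval -0.074 to 0.53; edgeR adjusted p = 0.276). Counting error alone would give a coefficient of variation of 7.69% in shControl and 6.98% in shTRIM21, against 12.3% and 7.78% seen, so depth limits what can be said of this RNA. The gene lies wholly inside KCNQ1, which stood at 0.052 on the log2 scale (SE 0.12, edgeR adjusted p = 0.805), and reads of the pair cannot be separated without strand.

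**Figure D3:**
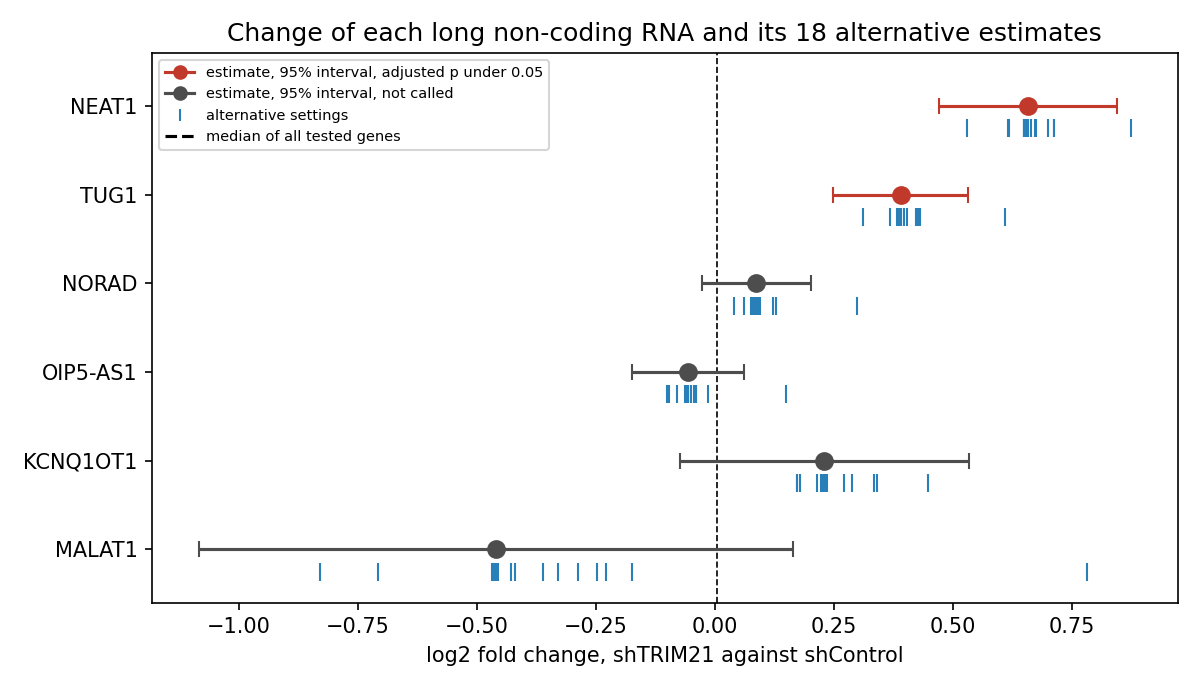
Log2 fold change of shTRIM21 against shControl for the 6 RNAs with 95% intervals (red, edgeR adjusted p under 0.05; grey, not called), the values under 18 alternative settings as ticks, and the median of all tested genes as a dashed line. NEAT1 and TUG1 stay above 0.31 in every setting, while MALAT1 runs from -0.83 to 0.78.

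Levels can be compared between genes only per length, here as CPM per kilobase of all annotated exons (GENCODE 29). In shControl NORAD was at 38.4 ± 0.455, OIP5-AS1 at 6.67 ± 0.165, TUG1 at 6.38 ± 0.184, MALAT1 at 2.62 ± 1.31, NEAT1 at 1.48 ± 0.0695 and KCNQ1OT1 at 0.0499 ± 0.00613 CPM per kilobase (SD, n = 3 each). The ranges of OIP5-AS1 (6.51 to 6.84) and TUG1 (6.19 to 6.56) overlapped, as did those of MALAT1 (1.10 to 3.42) and NEAT1 (1.40 to 1.52), so these neighbours in the order were not separated. In shTRIM21 the order of both pairs was the other way round, TUG1 8.36 ± 0.768 against OIP5-AS1 6.41 ± 0.245 and NEAT1 2.34 ± 0.341 against MALAT1 1.90 ± 0.554 CPM per kilobase (SD, n = 3 each). There the TUG1 libraries lay above all OIP5-AS1 libraries, while those of NEAT1 and MALAT1 overlapped. The median over 14295 tested genes with a length was 3.99 CPM per kilobase in shControl, and MALAT1, NEAT1 and KCNQ1OT1 lay below it. Places by mean CPM over the 6 libraries take no account of length. In the narrower set of 1016 tested long non-coding RNAs NORAD was at place 7, OIP5-AS1 at 21, TUG1 at 23, NEAT1 at 44, MALAT1 at 108 and KCNQ1OT1 at 287. Among all 15131 tested genes these RNAs were, in the same order, at places 566, 2016, 2297, 4155, 7254 and 11109. The set of long non-coding RNAs also holds antisense and read-through entries, such as MIF-AS1 at place 1 and SENP3-EIF4A1 at place 2. Reads of such entries may be shared with coding genes, so the places of the members in that set may be understated. The length used for NEAT1 covers its long transcript, 22767 bases, although reads of the short one are counted too, and that of KCNQ1OT1 91667 bases. Together the 6 rows took between 0.0517% (exact 95% binomial interval 0.0508 to 0.0525) and 0.0673% (0.0663 to 0.0683) of the counts outside ribosomal RNA, intervals that cover counting error only.

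NEAT1 and TUG1 had similar patterns over the libraries. Both were highest in shTRIM21 replicate 3, but within shControl NEAT1 was lowest in replicate 1 and TUG1 in replicate 2. The Pearson r of their log2 levels over the 6 libraries was 0.987, which includes the difference between the groups. Of 11097 genes compared, 14 were closer to NEAT1 than TUG1 was and 9 were closer to TUG1 than NEAT1 was. NORAD had an r of 0.859 with NEAT1, OIP5-AS1 -0.662 and MALAT1 -0.177. With 6 libraries that share their scaling, such values describe the pattern and carry no test. The genes most like NEAT1 were ZNF567, SPTLC2 and TOP2A (r of 0.9992, 0.9978 and 0.9976), and those most like TUG1 were FAM78A, KIAA0232 and PLEKHA2 (0.9947, 0.9925 and 0.9917). ICE1, PCM1 and RGP1 were most like NORAD (0.9938, 0.991 and 0.9844), and DNAJC22, DLL1 and RNF31 most like KCNQ1OT1 (0.9928, 0.9915 and 0.9889). For OIP5-AS1 these were DPY30, SUPT20H and NBDY (0.9792, 0.9786 and 0.9759). After TALAM1, MALAT1 was most like KCNC4 and ZNF585B (0.9793 and 0.9783).

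NEAT1, itself within 100000 bases of MALAT1, was the only tested gene near another member that was called higher. Within 100000 bases of a member, 25 genes that are no members were tested. By edgeR 4 of these were lower and 0 higher, beside 11.0% and 9.77% of all tested genes. At an unadjusted p under 0.05 0 were higher, and 0 were higher by DESeq2 or limma-voom. MORC2, a chromatin remodeller gene that starts 490 bases from TUG1 on the other strand, was at 0.081 (SE 0.073, edgeR adjusted p = 0.468), and the smooth muscle protein gene SMTN, farther off, at -0.30 (SE 0.057, edgeR adjusted p = 0.00183), a call lost with library totals alone. Near OIP5-AS1 the calcineurin-like gene CHP1 was at -0.27 (SE 0.054, edgeR adjusted p = 0.00308), lost with library totals alone and without shControl replicates 1 and 3. OIP5, a centromere protein gene whose end overlaps OIP5-AS1 by 4066 bases, was at -0.25 (SE 0.083, edgeR adjusted p = 0.0428), kept in 10 of 18. The 3 tested neighbours of NORAD lay between -0.042 and 0.078.

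The lists of partners that follow were drawn up from background knowledge with earlier results of these data known, and the number of genes in each is of those tested. Over all tested genes 9.77% were called higher and 11.0% lower in the main fit, which is the background for the count of calls in every list. Of 38 called genes named from the lists and from the neighbours, 6 kept the call under all 18 alternatives (TARDBP, XRCC4, MIR100HG, SNHG1, EBLN3P and MIR4435-2HG), 11 lost it with library totals alone and no other setting, and 21 lost it in another. Calls were kept least often for ELAVL1 (7 of 18), CPSF7 (8), SRSF7 and ALYREF (9 each), OIP5 (10), and POP7 and SLC22A18 (11 each).

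Of 29 genes of paraspeckle proteins, the partners of NEAT1, 2 rose and 2 fell, beside 9.77% and 11.0% of all tested genes, with a median log2 fold change of -0.021, or 0.19 with library totals alone. The core proteins NONO and SFPQ were at 0.029 (SE 0.049) and 0.0096 (SE 0.071), and PSPC1 at 0.28 (SE 0.12); the edgeR adjusted p-values were 0.727, 0.943 and 0.106. PSPC1 was at 57.4, 67.5 and 68.0 CPM in shTRIM21 and 49.7, 66.3 and 42.8 CPM in shControl. It was called higher without shControl replicate 2 (0.47, edgeR adjusted p = 0.00198), with library totals alone, when low genes were kept in, and with the replicate block (0.30, edgeR adjusted p = 0.0341), over a range of 0.00198 to 0.776 for its 18 alternatives; without shControl replicate 3 it was at 0.14. The RNA-binding protein gene TARDBP, encoding TDP-43, was the clearest exception at 0.44 (SE 0.055, edgeR adjusted p = 5.67e-05), from 146 to 198 CPM, and was called under all 18 alternatives. RBM12 rose by 0.19 (SE 0.051), and HNRNPH1 and the cleavage factor gene CPSF7 changed by -0.21 (SE 0.055) and -0.16 (SE 0.052).

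Of 14 genes reported to induce NEAT1, 6 fell and 1 rose, beside 11.0% and 9.77% of all tested genes, with a median of -0.17. Among those that fell were the stress factor genes ATF4 at -0.53 (SE 0.053) and DDIT3 at -0.51 (SE 0.11), and EPAS1, encoding HIF-2 alpha, at -0.48 (SE 0.074); the edgeR adjusted p-values were 6.14e-06, 0.00402 and 0.000376. STAT3 was the 1 that rose, at 0.21 (SE 0.059). With library totals alone 0 of the 14 were called and the median was 0.044, against 0.22 over all tested genes.

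Proteins of nuclear speckles, where MALAT1 resides, were mixed. Of 28, 2 rose and 4 fell, with a median of 0.0097 and 0 calls with library totals alone. SRSF2, used to mark speckles, and SRSF7 rose by 0.17 (SE 0.049) and 0.21 (SE 0.068), while the splicing factor gene U2AF2 changed by -0.33 (SE 0.051), SRSF4 by -0.19 (SE 0.051) and PRPF6 by -0.18 (SE 0.052). The SRSF7 groups overlapped, with 92.7 CPM in shTRIM21 replicate 3 and 93.0 CPM in shControl replicate 3 (edgeR adjusted p = 0.0446). Calls of SRSF2 and SRSF7 were kept in 12 and 9 of 18 alternatives. Of 24 genes of RNA end processing and decay, 2 rose and 1 fell, with a median of -0.029. That median was 0.18 with library totals alone and -0.044 without shControl replicates 1 and 3. POP1 and RPP25, subunits of RNase P, rose by 0.40 (SE 0.081) and 0.38 (SE 0.10), and the subunit gene POP7 changed by -0.22 (SE 0.067). Their calls were kept in 17, 14 and 11 of 18 alternatives. ELAC2, which cuts the other side of mascRNA, was at -0.10 (SE 0.058, edgeR adjusted p = 0.245).

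PUM2, a PUMILIO gene whose product NORAD binds, did not pass the test, at 0.0033 (SE 0.060; edgeR adjusted p = 0.978). Of 10 genes of NORAD-binding proteins and PUMILIO partners 2 fell, TOP1 by 0.24 and ALYREF by 0.16 on the log2 scale. The median of the 10 was -0.098, or 0.11 and 0 calls with library totals alone. Of 18 genes reported as PUMILIO targets 5 fell, with a median of -0.13. XRCC4, of DNA end joining, changed by -0.98 (SE 0.074), the cyclin gene CCND1 by -0.65 (SE 0.060) and the centromere gene CENPN by -0.47 (SE 0.057); the edgeR adjusted p-values were 3.58e-07, 3.04e-06 and 4.43e-05. With library totals alone 1 of the 18 was called lower, beside 138 of all 15131 tested genes. The median of the 18 was then 0.074, against 0.22 over all tested genes.

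Of 6 partners of OIP5-AS1, 3 fell, with a median of -0.16 (0.054 and 0 calls with library totals alone): HNRNPD at -0.42 (SE 0.10, edgeR adjusted p = 0.00834), OIP5, and ELAVL1, which encodes the HuR protein that binds OIP5-AS1, at -0.15 (SE 0.049, edgeR adjusted p = 0.0426). HNRNPD was at 429 CPM in shControl replicate 2 and 304 CPM in each of the other two, and without that library its change was -0.23. Its call was lost with DESeq2, with robust empirical Bayes and with library totals alone. The ELAVL1 call was kept in 7 of 18 alternatives, and its sign turned to 0.062 with library totals alone. In the KCNQ1 imprinted cluster and its silencing factors 1 of 18 rose and 4 fell, with a median of -0.056, against 1 and 0 and a median of 0.15 with library totals alone. The placental growth regulator gene PHLDA2 changed by -0.29 (SE 0.071), the cysteinyl-tRNA synthetase gene CARS1 by -0.57 (SE 0.063), the methyltransferase gene DNMT1 by -0.18 (SE 0.050), and SLC22A18 by 0.31 (SE 0.10). The cell cycle inhibitor gene CDKN1C, which KCNQ1OT1 silences in cis, was at -0.17 (SE 0.13, edgeR adjusted p = 0.373), and at -0.0079 without shControl replicate 1. Of 8 TUG1 partners, 1 fell, the histone methyltransferase gene SUV39H1 at -0.34 (SE 0.083), with a median of -0.061, or 0.15 and 0 calls with library totals alone.

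**Figure D4:**
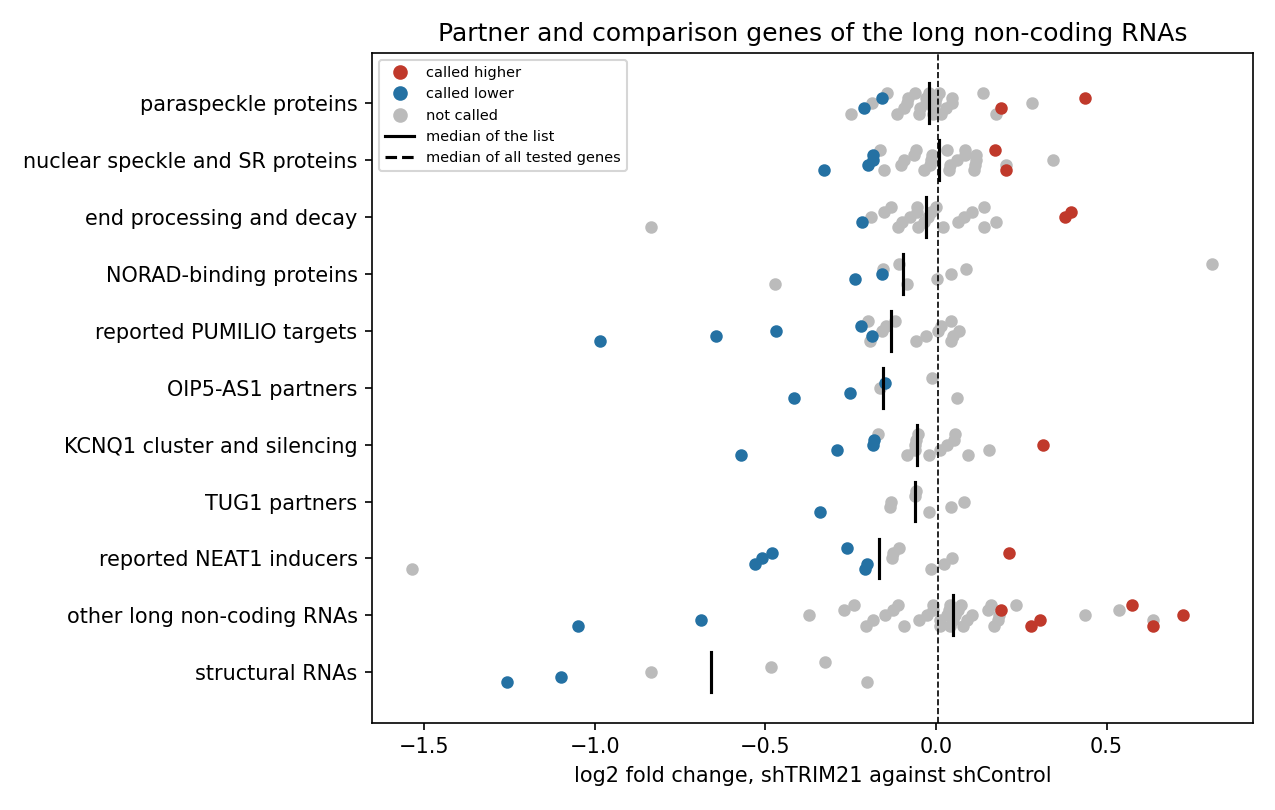
Log2 fold change of shTRIM21 against shControl for the tested genes of 11 lists, 1 point per gene (red, called higher; blue, called lower; grey, not called), with the median of each list as a bar and that of all tested genes as a dashed line. Paraspeckle and speckle proteins lie close to the dashed line, with TARDBP at 0.44 the highest of the paraspeckle list.

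Of 1010 other tested genes that RefSeq classes as lncRNA, 6.24% were higher and 4.75% lower, against 10.5% and 12.2% of 12818 protein-coding genes. The median log2 fold changes were 0.078 and -0.00042. These shares were not matched for level: KCNQ1OT1, at a mean of 4.97 CPM, stood at place 287 of 1016 long non-coding RNAs and 11109 of 15131 tested genes. The part of level in the shares was not tested. With the members counted, 31 long non-coding RNAs called higher had a mean of at least 5 CPM in either group, of which 6 rose more than NEAT1 and 17 more than TUG1. In a list of well-known ones 6 of 43 rose and 2 fell, with a median of 0.051. MIR100HG, host of a microRNA cluster, rose by 0.72 (SE 0.069), the snoRNA host SNHG1 by 0.30 (SE 0.057) and EBLN3P by 0.28 (SE 0.061). MIR4435-2HG changed by -1.05 (SE 0.12) and its near-identical copy CYTOR by -0.69 (SE 0.13), so reads of that pair may be shared.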

How the data were processed

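Each of the 6 libraries came as a file of unnormalized counts by symbol, deposited by the authors. The submitters' processing notes list hg38, TopHat2, edgeR 3.38.1 and limma 3.52.2, with no step attached to any of them. How reads were counted, on which annotation and whether by strand is not given in the sources used here. Computation was done with R 4.3.3 and edgeR 4.0.16: filterByExpr (minimum count 10, minimum total 15), TMM factors, and the quasi-likelihood F test of shTRIM21 against shControl on all 6 libraries with no other term. P-values were adjusted by Benjamini-Hochberg over all 15131 genes, with calls under 0.05. For the edgeR fits, SE is the absolute log2 fold change over the square root of F. DESeq2 1.42.0 and limma 3.58.1 (voom) were alternatives, and the fit was tested on simulated data. Positions are from RefSeq (GRCh38.p14), transcripts and lengths from GENCODE 29, which may differ from the authors' annotation.

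The members, the 11 gene lists and the naming rule were chosen with earlier results of these data known. The rule took TRIM21, the members, 11 set partners, up to 3 called genes per list and direction, tested genes within 100000 bases of a member, and the 3 genes of at least 5 CPM most like each member. Uncalled neighbours are given by count or range. A few genes that the rule names are not reported here, though they stay in the fits and in the counts over lists and neighbours.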

Additional observations from a re-analysis of the deposited data

How the results depend on the processing

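NEAT1 and TUG1 kept their direction and call under all 18 alternatives: NEAT1 ranged from 0.53 to 0.87 and TUG1 from 0.31 to 0.61 on the log2 scale. NORAD (0.041 to 0.30) and KCNQ1OT1 (0.17 to 0.45) kept their direction and were called in none, with lowest edgeR adjusted p-values of 0.101 and 0.129. Leaving out 1 library at a time moved MALAT1 from -0.83 to -0.23; it was 0.78 without shControl replicates 1 and 3, with the lone shControl library assumed to vary like shTRIM21, where TALAM1 was 0.80, SFPQ -0.15 and PSPC1 -0.052. The number of called genes, 3146, fell to 1969 with library totals alone, to 1958 without shControl replicates 1 and 3, and ranged from 1844 (without shTRIM21 replicate 2) to 2592 with 1 library left out. With library totals alone 93.0% of calls were higher, against 47.0% with TMM and 62.1% with upper-quartile factors. With library totals alone the signs of several small changes turned: OIP5-AS1 0.15, ELAVL1 0.062, CDKN1C 0.046, ELAC2 0.11, CPSF7 0.056, SRSF4 0.027, PRPF6 0.023, ALYREF 0.051 and DNMT1 0.032. PUM2 turned to -0.0038 without ribosomal RNA rows and to -0.00011 with no filter on low counts. With 1 library left out, SFPQ ran from -0.071 to 0.090, PUM2 from -0.045 to 0.029 and KCNQ1 from -0.043 to 0.20. Of 38 called genes named beside the members, 6 kept their call throughout, 11 lost it with library totals alone and no other setting, and 21 lost it in another setting; the causes were not tested. With the replicate number as a block (replicate block) 2905 genes were called, and NEAT1 was 0.65 and TUG1 0.39. Same-numbered libraries had correlations of -0.013, 0.0057 and -0.080 in their deviations from the group means, and differently numbered ones -0.039 to 0.051. Deviations from a mean of 3 libraries are tied to one another, so these values cannot show whether same-numbered libraries belong together. Depth limits KCNQ1OT1, at 155 to 224 counts, and mascRNA, at 0 or 1.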

Other observations

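RN7SL1 and RN7SL2, the RNAs of the signal recognition particle, went from 19.9 to 9.31 CPM and from 37.5 to 15.7 CPM in shTRIM21, log2 fold changes of -1.10 (SE 0.19) and -1.26 (SE 0.26) (edgeR adjusted p-values: 0.000919 and 0.00333). RN7SL2 was at 23.2, 10.9 and 13.0 CPM in shTRIM21 and 55.8, 30.9 and 25.9 CPM in shControl. The calls of RN7SL1 and RN7SL2 were kept in 16 and 17 of 18 alternatives. These 2 genes are near-identical copies, so their reads may be shared. Both are called lower in a list of 6 tested genes whose median was -0.66. That list holds TALAM1, which is no structural RNA and may share reads with MALAT1, and RPPH1, at 0.907 CPM in shTRIM21 and 1.64 CPM in shControl. Without shControl replicates 1 and 3, which leaves 1 shControl library, the median was 0.76 and TALAM1 was at 0.80. RN7SK, the RNA that holds the elongation factor P-TEFb, held 57, 237 and 167 counts in shTRIM21 and 96, 55 and 356 in shControl. Its extreme counts, like those of MALAT1, fell in shControl, lowest in replicate 2 and highest in replicate 3.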
